A study of Mus musculus with 2 samples.

Results

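The 10 genes examined were the Notch receptors Notch1, Notch2, Notch3 and Notch4, the ligands Dll1, Dll3, Jag1 and Jag2, and the target genes Hes1 and Hes5. They were taken by gene symbol from a deposited mm10 gene table of 24532 genes, and each matched 1 row. The table holds RNA-seq of polyadenylated RNA from mouse E14 embryonic stem cells (ESCs) and from ESCs with the Sox2 T258A mutation, with 1 library per genotype. The parental line, E14, is a long-used wild-type line of mouse ESCs, grown with serum and leukemia inhibitory factor. The Sox2 T258A cells are an E14 clone in which threonine 258 of Sox2, a site of O-GlcNAc sugar modification, was changed to alanine in 1 allele by CRISPR-Cas9 editing, while the other allele stayed wild type. Per the methods of the study, such clones were isolated and maintained in serum and leukemia inhibitory factor plus PD0325901 (a Mek inhibitor) and CHIR99021 (a Gsk3 inhibitor), and these inhibitors had been removed for some passages when cells were used. Genotype, clonal origin and culture history therefore cannot be told apart in this comparison.

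Notch signaling passes between touching cells. A Delta-like or Jagged ligand on a cell binds a Notch receptor on its neighbour, the receptor is cut by ADAM proteases and then by the gamma-secretase complex, and the freed intracellular domain joins the DNA-binding protein Rbpj to switch on genes such as those of the Hes and Hey repressors. Hes proteins in turn repress proneural genes and, in neural progenitors and the presomitic mesoderm, the ligand gene Dll1. In ESCs the pathway is known more for its part in leaving self-renewal, above all in neural commitment, than for maintaining it.

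The E14 library held 60263536 counted reads and the Sox2 T258A library 44609228. Expression is given as TPM, the usual relative transcript abundance, a scale corrected for transcript length, and differences are given as the log2 ratio of TPM, Sox2 T258A over E14. As each genotype was sequenced once, the differences could not be tested against replicates, and no p-values are given. The 95% intervals cover the counting of reads alone, not variation between cultures. Sox2 itself had a TPM of 373 in E14 and 274 in Sox2 T258A cells, and its level does not show the edit. The pluripotency genes Pou5f1, Sox2, Nanog, Zfp42 and Esrrb all had a TPM above 250 in both libraries, but Nanog was more than 2-fold lower in Sox2 T258A cells (527 and 251, log2 ratio -1.07, -1.10 to -1.04). In bulk RNA, fewer cells that express a gene and less RNA per cell cannot be told apart.

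Dll1, the Delta-like ligand of neural and somitic progenitors, was the one member with a difference of more than 2-fold. Of the 10 members, 6 reached a TPM of 10 in E14, Sox2 T258A cells or both, the filter of the study, and of these 1 was more than 2-fold lower and 0 were more than 2-fold higher in Sox2 T258A cells. Over all genes past that filter, 4.07% were more than 2-fold lower and 4.17% more than 2-fold higher, so with 6 members these counts do not set the group apart from other genes. Dll1 passed the filter through the E14 library alone and Notch2 through the Sox2 T258A library alone. The 4 members under the filter, Notch4, Dll3, Jag1 and Hes5, all differed by less than 2-fold. Among all genes whose higher TPM was 1 to under 10, like the first 3 of these, 21.5% were more than 2-fold lower and 10.9% higher, and among those above 0 and under 1, like Hes5, 46% were lower and 21.6% higher. On the log2(TPM + 0.1) scale, 9 members reached a mean TPM of 1 and had a median log2 ratio of 0.17, beside 0.04 over all 13269 genes that did. The FPKM scale of the authors, also corrected for length, lowered these medians to 0.03 and -0.10.

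The stretch of 250 bases before the outer RefSeq start of Dll1 is shown because this gene carries the difference (chr17:15376933-15377182, GRCm38, minus strand, 5′ to 3′). Capitals mark ACAAT or its reverse complement ATTGT, letters found in many binding sites of Sox proteins, which were chosen after the expression values had been seen.
Dll1: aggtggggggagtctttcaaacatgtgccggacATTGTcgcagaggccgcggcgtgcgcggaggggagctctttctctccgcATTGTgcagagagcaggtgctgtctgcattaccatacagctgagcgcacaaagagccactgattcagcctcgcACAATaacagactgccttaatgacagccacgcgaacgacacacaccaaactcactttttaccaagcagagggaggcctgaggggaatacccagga
The 3 matches begin 217, 168 and 95 bases before the outer start. The window before the other RefSeq start of Dll1, at position 15375823, held 0 matches. A match was found in 27.7% of 32851 RefSeq promoter windows of this length, and 1.35% held at least 3. The RefSeq table had windows for 9 of the 10 members, all but Hes1, and 4 of the 9 held a match. A match is a run of letters and no evidence of binding, and these libraries hold no measure of Sox2 on DNA.

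**Figure D1:**
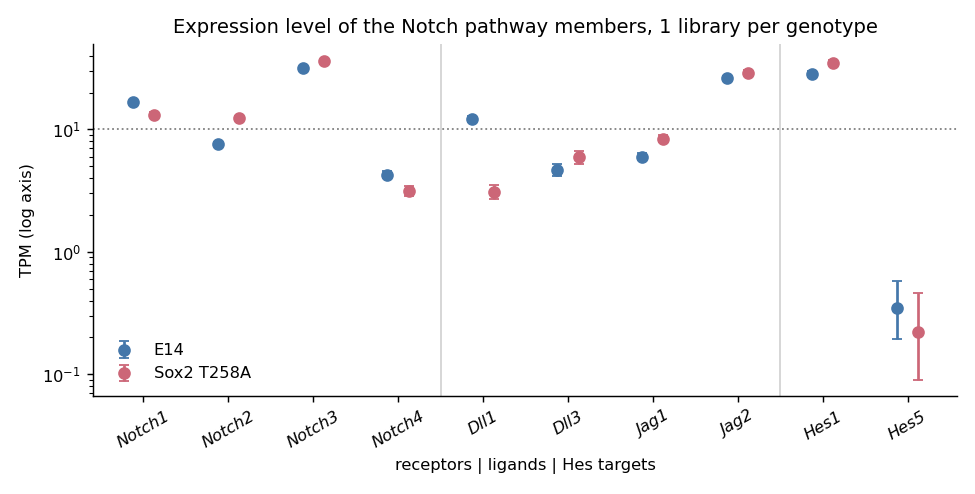
TPM of each member (log axis) in E14 (blue) and Sox2 T258A cells (red), with 95% exact Poisson intervals of the read count and the filter of 10 TPM as a dotted line. Notch3, Hes1 and Jag2 were the 3 highest in both libraries, Hes5 was the lowest in both, and Dll1 had the widest gap, 12.1 against 3.07.

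Among the ligands, Dll1 (Entrez gene 13388, chr17:15367354-15376932) had 1309 reads and a TPM of 12.1 (11.5 to 12.8) in E14, and 222 reads and a TPM of 3.07 (2.68 to 3.50) in Sox2 T258A cells. The intervals lay far apart, and the level in Sox2 T258A cells was 3.95-fold lower (3.42 to 4.58), a log2 ratio of -1.98 (-2.19 to -1.78). That interval lay wholly past 2-fold, as did those of 3.14% of genes past the TPM filter on the lower side and 3.23% on the higher side, where 0 members lay. Only 2.13% of genes averaging a TPM of 1 or more had a lower ratio. The ratio stayed past 2-fold under every scaling, pseudocount and trend removal tried, from -2.13 to -1.69. An RNA gene on the opposite strand, A930024N18Rik, overlaps a Dll1 exon by up to 445 bases in GENCODE and has no row under that name in the table. The handling of strand is not stated, so reads of the shared stretch cannot be assigned to either gene.

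Jag2 (Entrez gene 16450, chr12:112907803-112929812), a Jagged ligand, was the most abundant ligand in both libraries. It had 3375 reads and a TPM of 26.4 in E14 and 2491 reads and a TPM of 29.1 in Sox2 T258A cells. The log2 ratio of 0.14 (0.06 to 0.21) was close to no difference, and it was -0.0039 with the FPKM scale of the authors. Jag1 (Entrez gene 16449, chr2:137081451-137116520), the Jagged ligand known from Alagille syndrome, had 1039 and 972 reads, with a TPM of 6.0 in E14 and 8.38 in Sox2 T258A cells. Its log2 ratio was 0.48 (0.35 to 0.61), or 0.23 once the trends with GC content and length across genes were removed. Dll3 (Entrez gene 13389, chr7:28293555-28301785) is a divergent Delta-like protein that does not activate Notch in neighbouring cells. It had 318 and 270 reads, with a TPM of 4.65 and 5.90 and a log2 ratio of 0.34 (0.10 to 0.58). All 3 of these ligands thus lay on the higher side in Sox2 T258A cells by TPM, none of them by 2-fold. Of the 13269 genes averaging a TPM of 1 or more, 7053 lay on that side.

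The 4 ligands together had a TPM of 49.2 (47.9 to 50.5) in E14 and 46.5 (45.0 to 48.0) in Sox2 T258A cells, so the intervals of the sums touched while the composition differed. Dll1 made up 24.6% (23.5% to 25.8%) of the ligand TPM in E14 and 6.60% (5.77% to 7.44%) in Sox2 T258A cells. The Jagged ligands made up 65.9% (64.6% to 67.2%) and 80.7% (79.2% to 82.2%). A ratio of 2 genes within a library does not depend on how libraries are scaled, though it can depend on trends with GC content and length. In all, 12 such pairs of members were set side by side. Jag2 exceeded Dll1 2.18-fold in E14 and 9.49-fold in Sox2 T258A cells. Relative to the other ligand, Dll1 in Sox2 T258A cells was at 0.230 (0.197 to 0.268) of its E14 value when set against Jag2, at 0.181 (0.153 to 0.215) against Jag1 and at 0.200 (0.160 to 0.249) against Dll3. By TPM, Jag1 over Jag2 was 1.27 times higher (1.14 to 1.40) in Sox2 T258A cells. Dll3 over Jag2, at 1.15 (0.966 to 1.37), was not resolved from no difference at this depth. Correcting for GC content and length brought the log2 ratios of Jag1 (0.23) and Jag2 (0.15) closer together. It moved that of Dll3 (0.58) further from Jag2. Which of these pairs differed therefore depends on that setting.

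**Figure D2:**
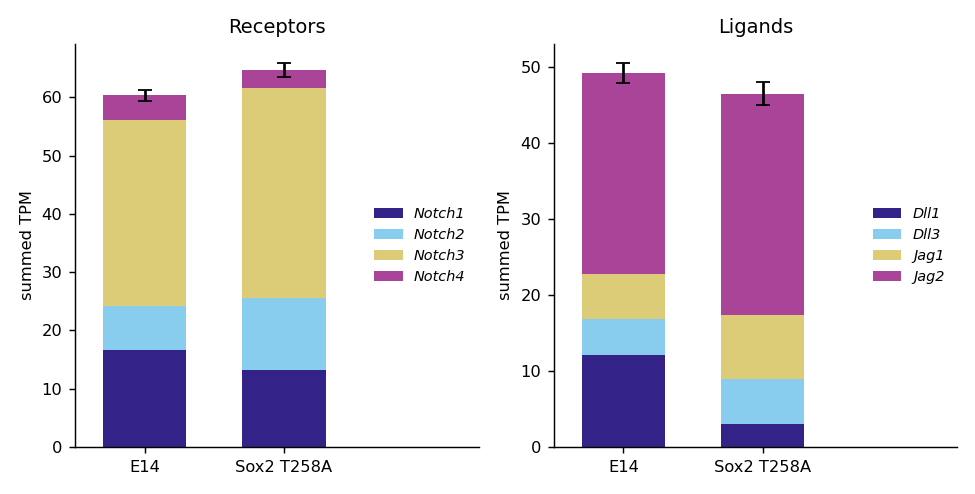
Summed TPM of the 4 receptors (left) and of the 4 ligands (right) in each library, stacked by gene, with the 95% counting interval of the sum as a black bar. The Dll1 block was 24.6% and 6.60% of the ligands and the Notch2 block 12.6% and 19.2% of the receptors, while the sums were 60.4 and 64.7 for receptors and 49.2 and 46.5 for ligands.

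The receptors differed less than Dll1, and not in 1 direction. Notch3 (Entrez gene 18131, chr17:32120820-32166896) was the most abundant receptor, with 7963 reads and a TPM of 31.8 (31.1 to 32.5) in E14 and 6025 reads and a TPM of 35.9 (35.0 to 36.9) in Sox2 T258A cells. Its log2 ratio of 0.18 (0.13 to 0.22) went to -0.06 with the GC and length trend removed, so no direction is given for it. Notch1 (Entrez gene 18128, chr2:26457902-26503822), the receptor needed for early embryonic development, had 4972 reads and a TPM of 16.6 in E14 and 2649 reads and a TPM of 13.2 in Sox2 T258A cells, a log2 ratio of -0.33 (-0.40 to -0.26). Notch2 (Entrez gene 18129, chr3:98013538-98150367), also needed for embryonic development, had the largest positive ratio of the 10 members by TPM. It had 2524 reads and a TPM of 7.63 in E14 and 2749 reads and a TPM of 12.4 in Sox2 T258A cells, a log2 ratio of 0.70 (0.62 to 0.78). With the GC and length trend removed it was 0.42, below Dll3 (0.58) and Hes1 (0.43). Notch4 (Entrez gene 18132, chr17:34564286-34588543), best known from endothelium, had 887 and 440 reads, a TPM of 4.26 and 3.15 and a log2 ratio of -0.44 (-0.60 to -0.27). Notch1 and Notch4 stayed on the lower side and Notch2 on the higher side under every alternative tried. GENCODE exons of other genes overlap exons of Notch1, Notch2 and Notch3, by up to 964, 202 and 333 bases, and none of these genes has a row of its own in the table.

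Together the receptors had a TPM of 60.4 (59.4 to 61.3) in E14 and 64.7 (63.5 to 65.9) in Sox2 T258A cells. Notch3 was the largest part of it in both, at 52.7% and 55.5%. Notch1 took 27.6% (26.9% to 28.2%) in E14 and 20.4% (19.7% to 21.1%) in Sox2 T258A cells, whereas Notch2 took 12.6% (12.2% to 13.1%) and 19.2% (18.5% to 19.8%). As a pair, Notch2 over Notch1 went from a TPM ratio of 0.459 to 0.937, which is 2.04 times higher (1.90 to 2.20). Notch4 over Notch3 was at 0.656 (0.581 to 0.740) of its E14 value. Endothelial markers, set beside Notch4, had a summed TPM of 109 in E14 and 48.2 in Sox2 T258A cells over 5 genes, nearly all of it Pecam1 (103 and 44.1), a gene that ESCs also express. Of the defining markers, Cdh5 had 17 and 12 reads and Emcn had 0 reads in both libraries. Pecam1 and Tek were lower, Kdr had 19 and 75 reads, and the part of such cells in the Notch4 value was not tested.

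**Figure D3:**
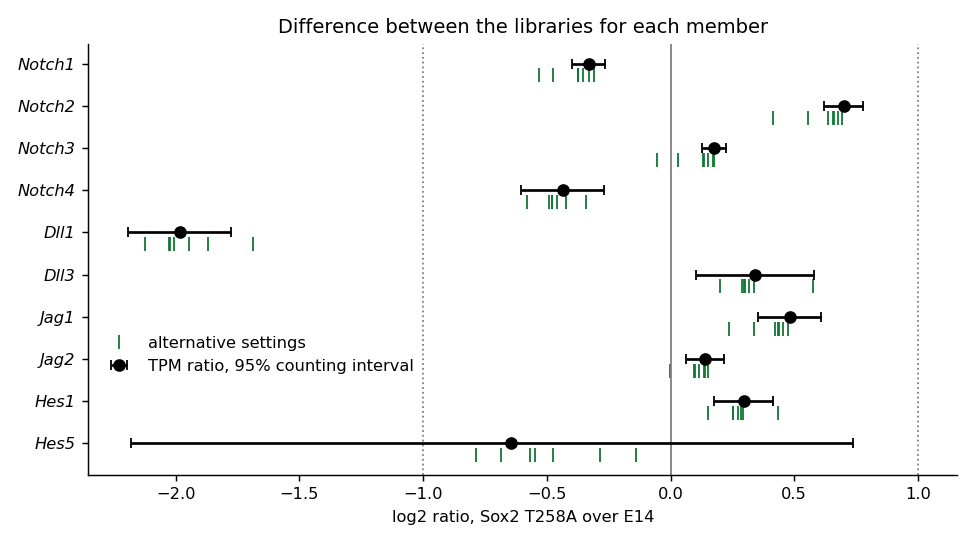
Log2 TPM ratio of each member, Sox2 T258A over E14, with its 95% counting interval (black), and the values under 7 alternative settings (green ticks). Dotted lines mark 2-fold. Dll1 at -1.98 was the only member past 2-fold, and Notch3 and Jag2 had ticks on both sides of 0.

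Of the Hes targets, Hes1 (Entrez gene 15205, chr16:30065357-30067796), a repressor whose level oscillates in ESCs and neural progenitors, had 1291 reads and a TPM of 28.2 (26.7 to 29.8) in E14 and 1062 reads and a TPM of 34.7 (32.6 to 36.8) in Sox2 T258A cells. Its log2 ratio was 0.30 (0.18 to 0.41), and it ranged from 0.15 to 0.43 under the alternatives. Hes1 was therefore slightly higher in the library in which Dll1 was lower, and Dll1 over Hes1 was at 0.206 (0.174 to 0.243) of its E14 value. By TPM, Hes1 over Notch3 did not differ beyond counting error (1.09, 0.995 to 1.19). Correction for GC content and length set their log2 ratios further apart, at 0.43 for Hes1 and -0.06 for Notch3. The result for this pair therefore depends on that setting. Hes5 (Entrez gene 15208, chr4:154960626-154962372), the Hes gene of neural progenitors, was barely detected. It had 15 reads and a TPM of 0.349 (0.195 to 0.576) in E14 and 7 reads and a TPM of 0.223 (0.0898 to 0.460) in Sox2 T258A cells. The intervals overlapped, and the log2 ratio of -0.64 (-2.18 to 0.74) leaves the direction unknown at this depth. Hes1 exceeded Hes5 80.9-fold in E14 and 155-fold in Sox2 T258A cells by TPM.

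Of the 9 members with a promoter window, Hes5 alone had the core letters of the Rbpj site, TGGGAA or its reverse complement TTCCCA, in the 250 bases before a RefSeq start. Both matches are shown, with 12 bases before and after them and the core in capitals, because Hes5 is a textbook Notch target that was nearly silent here. The matches are runs of letters and no evidence of binding. They begin 226 and 82 bases before the RefSeq start at position 154960923 (plus strand, GRCm38), and lie within the gene span given above, which begins upstream of that start.
Hes5 distal, chr4:154960685-154960714: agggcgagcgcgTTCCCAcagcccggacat
Hes5 proximal, chr4:154960829-154960858: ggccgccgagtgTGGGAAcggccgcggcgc
The core was found in 21.6% of all windows, and 2.77% held at least 2 matches. CACNAG on either strand, the N box bound by Hes proteins, was found in the windows of 3 of the 9 members (Notch1, Notch2 and Notch3), beside 36.7% of all windows, and in none of the windows of the 4 member ligands. An antisense transcript, Gm20421, overlaps a Hes5 exon by 156 bases in GENCODE.

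Within the E14 library the order of levels was Notch3, Hes1, Jag2, Notch1, Dll1, Notch2, Jag1, Dll3, Notch4 and Hes5. Neighbours whose intervals overlapped were Hes1 with Jag2 and Dll3 with Notch4. In Sox2 T258A cells Dll1 went from the fifth to the ninth place, and the order was otherwise kept. There the overlapping neighbours were Notch3 with Hes1, Notch1 with Notch2, and Notch4 with Dll1. Notch2 was therefore below Notch1 beyond counting error in E14 (7.33 to 7.93 against 16.2 to 17.1) and not resolved from it in Sox2 T258A cells (11.9 to 12.9 against 12.7 to 13.7). Among genes that averaged a TPM of 1 or more, Notch3 was above 63.9% of them in E14 and 65.6% in Sox2 T258A cells, and Dll1 above 39.5% and 16.4%.

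**Figure D4:**
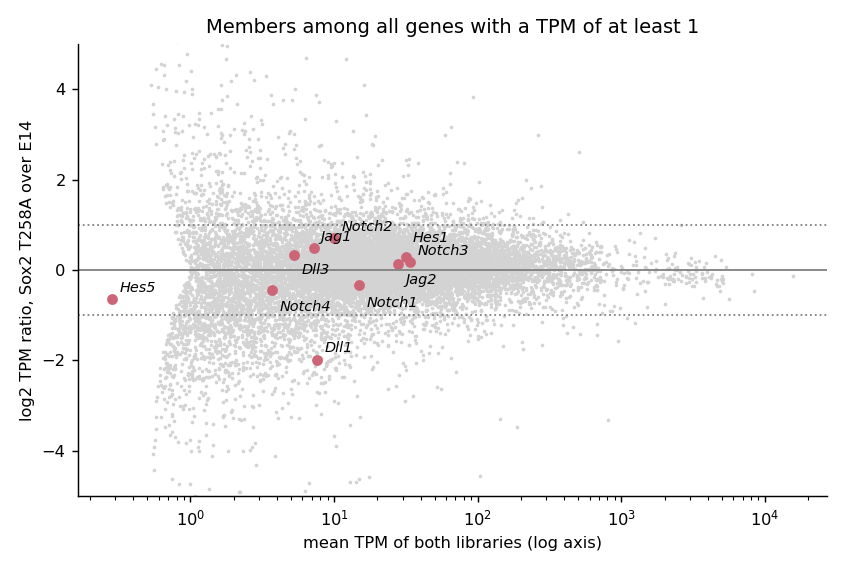
Log2 TPM ratio, Sox2 T258A over E14, against the mean TPM of both libraries (log axis) for 13660 genes that reached a TPM of 1 in either library and were above 0 in both (grey), with the 10 members in red. Of these genes, 26 lie outside the vertical axis, and Hes5 is drawn although its TPM is under 1. Dll1 sits at -1.98 near the lower edge of the cloud. The other members lie between the 2-fold lines, within the cloud except for Hes5, whose mean TPM is below that of the grey genes.

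The rest of the pathway was examined in 8 lists of 59 genes, all with a row in the table. Of the 38 that passed the TPM filter, 3 were more than 2-fold higher and 0 more than 2-fold lower, against the 4.17% and 4.07% of all genes given above. Their median log2 ratio was 0.04 over the 47 averaging a TPM of 1 or more, the same as over all genes.

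Rbpj, the DNA-binding partner of all 4 receptors, had a TPM of 140 in E14 and 165 in Sox2 T258A cells, a log2 ratio of 0.24 (0.22 to 0.27) that went to -0.11 with the GC and length trend removed. In its activation complex all 5 genes averaging a TPM of 1 or more had a positive ratio, from Snw1 (0.08) to Maml1 (0.77), a Mastermind coactivator. Of all 13269 genes at that level, 7053 had a positive ratio. The median of the 5 was 0.53, or 0.24 with the trend removed, and Snw1 went to -0.06 on the FPKM scale. The other 2 genes of the list averaged a TPM under 1 and were more than 2-fold higher. They were Maml2 (48 and 88 reads, log2 ratio 1.81, 1.29 to 2.35) and Maml3 (101 and 155 reads, 1.20, 0.83 to 1.58). Maml3 was at 0.87 with the trend removed. Among the Rbpj co-repressors, Tle4, a Groucho protein that also works with Hes proteins, had 3123 and 6855 reads and a TPM of 20.9 and 68.5 (log2 ratio 1.72, 1.65 to 1.78). Spen, which recruits histone deacetylases to Rbpj, had a TPM of 12.3 and 28.2 (1.20, 1.14 to 1.25), and its ratio was 0.96 with the trend removed. The list median of 0.19 went to -0.05 with the trend removed. Tle1, another Groucho gene, lay on the other side with a TPM of 23.9 and 15.8 (-0.60).

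The proteases and glycosyltransferases of the receptors were near level. In the cleavage list 8 of 10 genes passed the TPM filter and 0 of these differed by more than 2-fold. The median was -0.09, from Aph1b (258 and 57 reads, log2(TPM + 0.1) ratio -1.46) to Adam17 (0.33), which like Adam10 encodes an ADAM protease. The gamma-secretase subunit Aph1b and its close paralog Aph1c had a TPM under 2 in both libraries, and Aph1c had 152 and 39 reads (log2 ratio -1.41, -1.96 to -0.90). How reads common to such paralogs were counted is not given, so the split between them is uncertain. The 6 glycosyltransferases of the receptors had a median of -0.17, from Mfng (-0.55) to Eogt (0.38). Of the ligand endocytosis genes, the ubiquitin ligase genes Mib1 (0.38) and Mib2 (-0.73) marked the ends and the median was 0.03. Inhibitors and turnover genes ran from Dtx1 (-0.81), itself a known Notch target, to Dtx3l (1.65), with a median of 0.22 and 0 of the 7 genes past the TPM filter beyond 2-fold.

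The other Notch targets were mostly low and mostly lower. Hes6 was the 1 of 8 that passed the TPM filter, with 601 and 875 reads and a TPM of 14.3 and 31.0 (log2 ratio 1.12, 0.97 to 1.27), and it missed 2-fold on the FPKM scale (0.97). Hes6 antagonizes Hes1 and marks neuronal differentiation rather than an active Notch receptor. Of the 4 with a TPM of 1 to under 10, 3 were more than 2-fold lower, beside 21.5% of all genes in that range. The 3 were Hes2 (139 and 43 reads, log2 ratio -1.12), Hey2 (98 and 18 reads, -1.86, -2.67 to -1.13) and Nrarp (668 and 219 reads, -1.03, -1.26 to -0.81). Nrarp encodes a feedback inhibitor of the Notch intracellular domain, and it and Hey2 were named after their values had been seen, as were Dll4 and Heyl in the next sentences. With the GC and length trend removed Hes2 was at -0.96 and Nrarp at -0.91, both short of 2-fold. Dll4, the arterial Delta-like ligand, had 29 reads in E14 and 2 in Sox2 T258A cells, a ratio 9.70-fold lower with a counting interval of 2.45 to 83.9. Heyl had 20 reads in E14 and 0 in Sox2 T258A cells, which is at least 4.47-fold lower against a floor of 3 reads, while the counting interval, which also covers the E14 reads, begins at 3.31-fold. Among genes with a TPM above 0 and under 1, to which Dll4 and Heyl belong, the 46% given above were more than 2-fold lower. Of the 12 genes of the 8 lists with a TPM of 1 to under 10, 5 were more than 2-fold lower and 3 higher (21.5% and 10.9% of all genes). Of the 9 under 1, 7 were lower and 2 higher (46% and 21.6% of all genes). The higher ones were Maml2, Maml3, Dtx3l, Dtx4 (376 and 541 reads, log2 ratio 1.10) and Hes3 (2 and 6 reads).

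**Figure D5:**
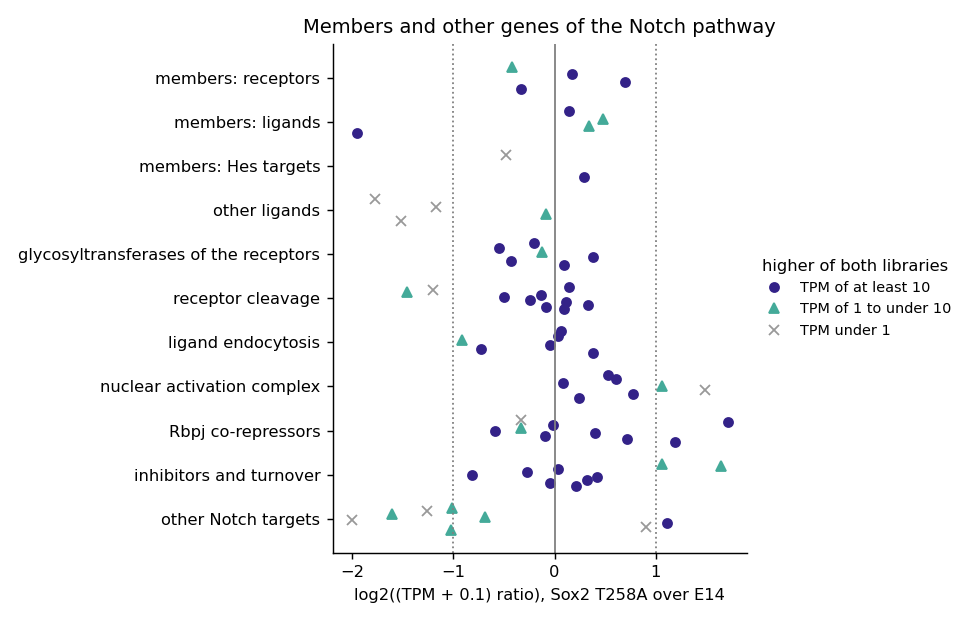
Log2((TPM + 0.1) ratio), Sox2 T258A over E14, of the members and of the 59 other pathway genes by list, with symbols by the higher TPM of both libraries. Dotted lines mark 2-fold. Most genes past the TPM filter lie between the lines, Dll1, Tle4, Spen and Hes6 lie outside them, and the other Notch targets lie mostly on the lower side.

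Markers of cells that use Dll1 or Hes5 were set beside these values. Of 5 neural progenitor markers, Sox1 and Nes passed the TPM filter and were more than 2-fold higher, Pax6 had 47 and 183 reads, and the summed TPM was 11.3 in E14 and 49.8 in Sox2 T258A cells, 36.2 of it from Nes. Fabp7 had 3 and 6 reads, and Zic1 had 39 and 21 reads (log2 ratio -0.31, -1.15 to 0.49), so not all 5 were higher. Dll1 and Hes5 had lower values in the library in which Sox1, Pax6 and Nes were higher, with the direction for Hes5 unresolved as given above. Of 5 presomitic mesoderm markers, T (62 and 606 reads), Rspo3 (9 and 97 reads) and Msgn1 (2 and 9 reads) were higher by more than 2-fold. For Msgn1 the interval of the log2 ratio (0.40 to 5.93) reached below 2-fold. Its TPM was under 1 in both libraries, a range in which 21.6% of all genes were more than 2-fold higher. Mesp2 was lower (718 and 185 reads, log2 ratio -1.38) and Tbx6 had 139 and 61 reads. The summed TPM of the 5 was 15.5 and 22.8. Neuron markers summed to 411 and 326, nearly all from Stmn2 and Tubb3, with Dcx at 0 and 3 reads. Map2 went against that sum, with 474 and 595 reads and a log2 ratio of 0.94 (0.76 to 1.11), and Elavl3 was at 0.11. Fibroblast markers summed to 49.8 and 19.5, most of it Thy1 (40.1 and 11.4), and Pdgfrb was also lower (6.75 and 2.85). The collagen genes of that list had ratios above 0, with 15 and 151 reads for Col3a1, 43 and 109 for Col1a2 and a log2 ratio of 0.15 for Col1a1, and Postn had 0 reads in both. The part of any of these cell types in the values of the members was not tested.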

How the data were processed

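RNA-seq of polyadenylated RNA was analyzed for 1 E14 and 1 Sox2 T258A library. The submitters' processing notes name bcl2fastq 2.20.0, Trimmomatic, HISAT2 2.1.0 and StringTie 2.1.3b. The counting of shared reads and strand is not given in the sources used here. Whole read counts per gene were deposited as counted. The deposited FPKM and TPM values were scaled by the authors for transcript length and library size. TPM served for levels and ratios without a pseudocount, and log2(TPM + 0.1) for list medians. Ratio intervals are exact Clopper-Pearson intervals of the counts, level intervals exact Poisson, share intervals a delta-method approximation, and pair intervals conditional odds ratios (scipy 1.17.1). They cover counting error only. The ratio interval, the 2-fold calls and the trend removal were tested on simulated Poisson counts, the model that the interval itself assumes. The level, share and pair intervals were not tested in this way. Scalings by edgeR 4.0.16 (TMM) and DESeq2 1.42.0 (size factors) were alternatives. The trend on GC content and length was removed as medians in 20 bins each, with GENCODE M21 transcripts matched to 23977 of 24532 genes. Gene positions and promoter windows are from RefSeq (GRCm38.p6), and overlaps from GENCODE M21. Genes named were all members, Sox2, listed genes past the filter and 2-fold, and the highest and lowest of each list, plus those said to be chosen later. Rbpj, Aph1c, Maml2, Maml3, Dtx4 and Hes3, and Adam10 without values, were named outside these rules. Markers were given by list. The members and lists were chosen with earlier results of these data known. Likeness of patterns was not measured with 2 libraries.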

Additional observations from a re-analysis of the deposited data

How the results depend on the processing

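The count of members more than 2-fold lower was 1, and the count higher was 0, under every scaling, pseudocount, filter and interval rule tried, and a 1.5-fold threshold added 1 higher member, Notch2. Of the 10 members, 8 kept their sign under the 7 scaling, pseudocount and trend settings, and Notch3 and Jag2 did not. Of 70 member values under these settings, 12 left the counting interval. The FPKM scale moved the median of all genes from 0.04 to -0.10 and that of the other Notch pathway genes from 0.04 to -0.10. For the latter, 3 genes were more than 2-fold higher and 0 lower, which became 6 and 5 with the TPM filter lowered to 1, 8 and 12 without a filter, and 6 and 3 at 1.5-fold. With the filter at 5 there was 1 lower, and at 3-fold 1 higher. Filters and folds change by construction which genes are counted. The median of the other Notch targets, -0.85 over 4 genes, was 1.11 at a mean TPM of at least 10, where Hes6 was the only gene, and no ligand outside the members reached that level. Among the members, depth limits Hes5 most. No paired analysis was possible because each genotype has 1 library.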

Other observations

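Proneural basic helix-loop-helix genes, which Hes proteins repress, were low in both libraries with 1 exception. Neurod1, which drives neuronal and endocrine differentiation, had 699 reads and a TPM of 8.89 in E14 and 1125 reads and a TPM of 21.4 in Sox2 T258A cells, a log2 ratio of 1.26 (1.13 to 1.40), and was the 1 gene of 8 that passed the TPM filter. It was also more than 2-fold higher on the FPKM scale (1.12) and with the GC and length trend removed (1.10). Neurog3, the endocrine progenitor factor, was on the other side with 94 and 12 reads (-2.40, -3.40 to -1.52). The remaining 6 genes had a TPM under 1 in both libraries, and of these 5 were more than 2-fold lower and 1 more than 2-fold higher. Of all genes in that range, 46% were lower and 21.6% higher. Among the lower ones, Neurod4 and Olig2 each had 7 reads in E14 and 0 in Sox2 T258A cells. The higher one, Neurog2, had 2 and 4 reads. The counting intervals of these genes included no difference.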
